A study of Mus musculus with 4 samples.

Results

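Prg4, Cilp, Cilp2, Cytl1, Tnmd, Scx, Mkx and Thbs4 are genes of the joint surface, cartilage and tendon, and their transcripts were followed cell by cell in reporter-labelled femur cells. The 8 genes were picked by symbol from the 28006 features of the deposited matrices, in which each symbol occurred once, and each had UMIs (unique molecular identifiers, 1 per captured transcript) in at least 3 of the 4 libraries. All mice carried Cxcl12-iCreER, a single transgenic line in which a tamoxifen-dependent recombinase is driven by a Cxcl12 bacterial artificial chromosome, and R26R(tdTomato/+), a red reporter that stays on after recombination. Tamoxifen was given to all of them 7 days before the marrow of 1 femur was ablated through the knee, and tdTomato+ cells were sorted 7 days after surgery from the ablated right femur (ABL) and from the contralateral left femur (CONT). The ablation entered between the separated cruciate ligaments, through a hole made in the intercondylar region. Before digestion the soft tissues and the epiphyses were taken off, and then the growth plates at the distal end and the proximal ends. The methods describe this without distinguishing the femurs. Replicate 1 of each group was a Chromium 3′ version 2 library, pooled from several mice, and replicate 2 a version 3 library. No age is given in the labels, and they do not say whether the 2 replicates are separate animals. The p-values measure only the spread between these libraries. The main fits take out a shift that both libraries of a replicate share, that of the chemistry included. What is left is how far the 2 replicates differ in ABL against CONT, which the chemistry can also alter. So can differences between animals, since the 2 femurs of replicate 2 were not wholly from the same animals (below).

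The genes were selected with their ABL and CONT levels already known, so every ABL and CONT value of a member below is a description and carries no p-value. What the selection saw was a summed level that was higher in ABL than in CONT in both replicates for 7 of the 8 genes, and lower in both for Mkx. These are sums over mesenchymal cells; over all called cells Mkx in replicate 1 was at 3.46 CPM in CONT and 4.43 CPM in ABL, a ratio of 1.28 (0.906 to 1.80). Levels are given as CPM, a gene's UMIs divided by all UMIs of the mesenchymal cells of a library and scaled to a common total, with exact 95% Poisson intervals that cover counting error only. Because the libraries count 3′ ends, 1 gene is compared between libraries and cell groups, and no level is compared between genes.

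Prg4 encodes lubricin, the secreted glycoprotein that coats articular cartilage and synovium and keeps the joint surface slippery; it is made by the lining cells of the synovium and by the superficial zone of cartilage. Cilp and Cilp2 encode related matrix proteins of cartilage and other connective tissue, and Cytl1 encodes a small secreted protein known from chondrocytes. Scx (scleraxis) and Mkx (mohawk) are transcription factors of tendon and ligament cells, Tnmd (tenomodulin) is a membrane protein of mature tendon cells, and Thbs4 encodes thrombospondin-4, a pentameric matrix protein of tendon and muscle attachments.

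The 4 libraries held 22889380 to 44784072 UMIs, with medians of 5714 to 12896 UMIs in the called cells. The mesenchymal cells numbered 1317 (CONT) and 692 (ABL) in replicate 1 and 2054 (CONT) and 1809 (ABL) in replicate 2, and between 95.7 and 97.6% of them had a tdTomato UMI. Reticular cells, named from Cxcl12, Adipoq, Lepr and other markers, made up 917, 333, 1574 and 272 of these. ABL replicate 2 stood apart. Its mesenchymal cells had the lowest summed level of the reticular markers (4741 CPM, against 17290 to 42060 CPM) and the highest of the joint lining markers that are no members (1206 against 70.2 to 90.0 CPM) and of the tendon markers that are no members (5428 against 183 to 750 CPM). It also had Xist UMIs in 0.0553% of mesenchymal cells, where CONT replicate 2 had them in 71.9%, so the paired femurs of replicate 2 did not come wholly from the same animals. In ABL replicate 1 the share was 81.4%, so the same holds for the ABL libraries of the 2 replicates. In replicate 2 the ablation and differences between animals, sex among them, therefore cannot be told apart, and the block does not remove them. Skeletal muscle markers summed to 14.0 to 51.2 CPM with Pax7 and Myod1 at 0 in every library, and no more than 5 cell barcodes were shared by any pair of libraries. Each result is therefore given for both replicates, and the share of each rise that comes from other cells entering the sort, as opposed to a change of level within cells, cannot be told apart in sums over a library.

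In the mouse genome (GRCm38) Prg4 lies at chr1:150449412-150466165 (minus strand), Cilp at chr9:65265180-65280605 (plus), Cilp2 at chr8:69880369-69887687 (minus), Cytl1 at chr5:37735519-37739820 (plus), Tnmd at chrX:133850980-133865577 (plus), Scx at chr15:76457452-76459458 (plus) and Thbs4 at chr13:92751590-92794818 (minus). These 7 genes are annotated as protein coding, and Mkx is placed with its values below. Scx is a basic helix-loop-helix factor, and factors of that family bind the E-box CANNTG, so the 250 bases before the RefSeq start were searched for it. The palindromic motif was read once, since it is the same on both strands. Of 5 members with a promoter in the table used, Cilp held 3 E-boxes, Thbs4 and Cilp2 1 each, and Cytl1 and Tnmd 0; Prg4, Scx and Mkx were not searched. Of all 32851 promoters 66.2% held at least 1 E-box and 12.2% at least 3. The promoter with the most E-boxes, that of Thbs4, whose pattern over clusters was the most like that of Scx among the members (below), and 1 with none read 5′ to 3′ on the gene's strand (GRCm38.p6, E-boxes in capitals):

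Cilp, chr9:65264930-65265179, plus: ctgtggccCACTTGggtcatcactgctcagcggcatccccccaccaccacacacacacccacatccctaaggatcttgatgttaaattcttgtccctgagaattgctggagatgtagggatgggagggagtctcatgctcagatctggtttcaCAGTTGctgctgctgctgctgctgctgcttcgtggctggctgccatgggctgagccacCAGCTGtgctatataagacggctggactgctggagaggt

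Thbs4, chr13:92794819-92795068, minus: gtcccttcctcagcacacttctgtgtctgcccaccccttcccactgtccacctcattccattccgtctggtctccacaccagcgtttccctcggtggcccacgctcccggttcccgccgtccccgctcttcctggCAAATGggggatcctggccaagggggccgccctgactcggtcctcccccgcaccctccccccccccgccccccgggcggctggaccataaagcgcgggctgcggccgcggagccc

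Cytl1, chr5:37735269-37735518, plus: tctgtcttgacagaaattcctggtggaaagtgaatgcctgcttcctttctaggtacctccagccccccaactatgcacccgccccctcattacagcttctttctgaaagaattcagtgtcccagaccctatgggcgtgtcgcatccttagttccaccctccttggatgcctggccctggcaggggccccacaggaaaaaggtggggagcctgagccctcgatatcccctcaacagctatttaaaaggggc

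The 3 E-boxes of Cilp start 242, 97 and 39 bases before the start of the gene, and that of Thbs4 115 bases before it. With an E-box in most promoters, their presence here sets none of the 5 genes apart, and their absence says only that these letters are not in the window.

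Prg4, the lubricin gene, was at 4.17 CPM (29 UMIs) in CONT and 132 CPM (800 UMIs) in ABL of replicate 1, and 7.93 CPM (219 UMIs) in CONT and 8305 CPM (212802 UMIs) in ABL of replicate 2. Both ABL libraries were above both CONT libraries, and the ABL libraries themselves were far apart. ABL over CONT was 31.7 in replicate 1 (95% interval 21.9 to 47.6) and 1047 in replicate 2 (917 to 1201).

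The 800 UMIs of ABL replicate 1 were not spread over its cells. A pair of cells with 426 and 288 Prg4 UMIs held 89.3% of them. Both were tdTomato+ (56 and 27 UMIs) and had UMIs of Clic5 (9 and 1), an actin-linked channel family protein known from synovial lining cells, and of Has1 (3 and 5), a hyaluronan synthase. Without the 2 richest cells of each library, Prg4 was at 14.3 CPM in ABL replicate 1 (11.4 to 17.6) and 2.59 CPM in CONT replicate 1 (1.54 to 4.10), while ABL replicate 2 stayed at 8030 CPM and CONT replicate 2 at 4.06 CPM.

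**Figure D1:**
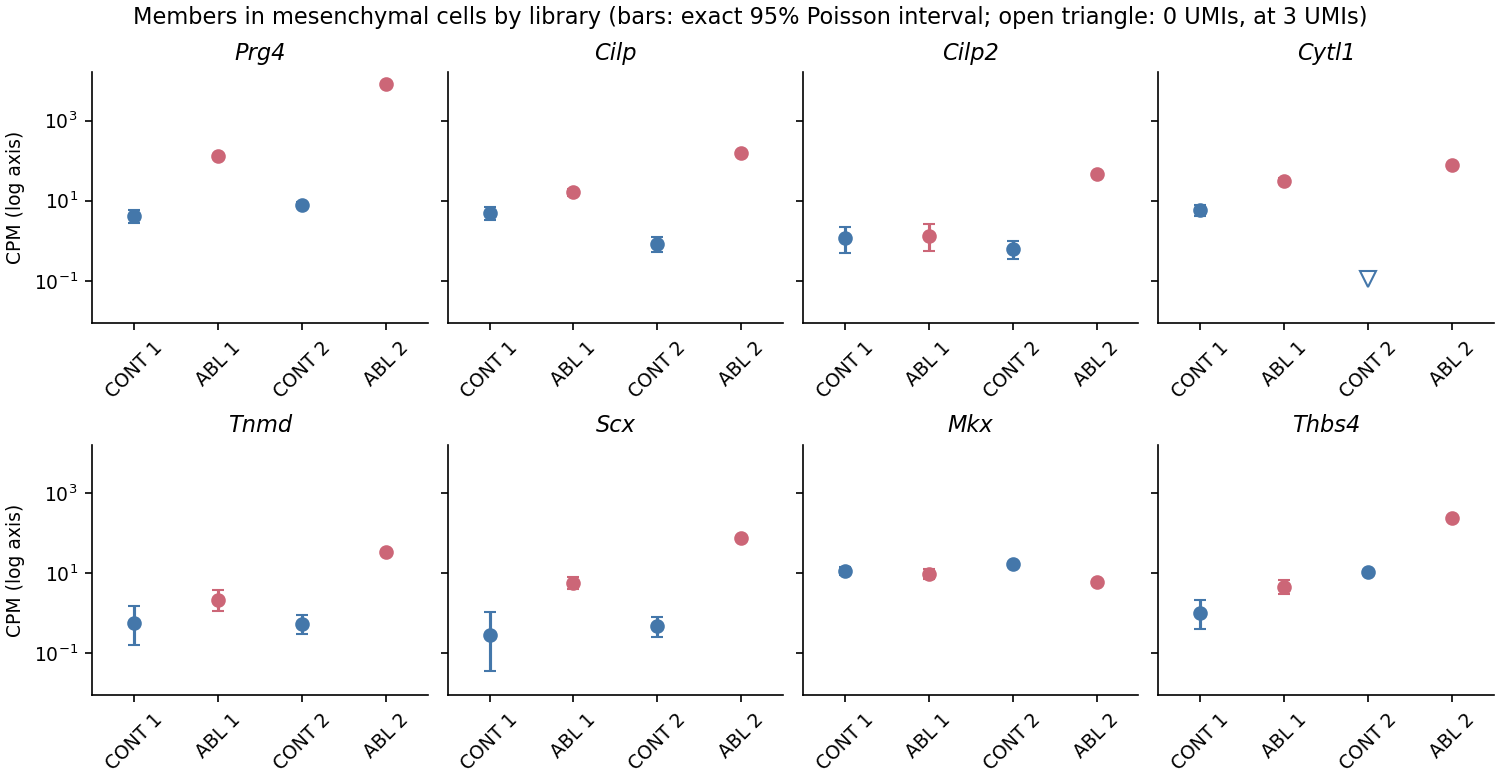
CPM (log axis) of the 8 members summed over the mesenchymal cells of the 4 libraries, 1 point per library with its exact 95% Poisson interval (bars shorter than the point are hidden by it); the open triangle marks Cytl1 in CONT replicate 2, which had 0 UMIs, at the level of 3 UMIs. Prg4 runs from 4.17 to 8305 CPM, and Mkx is the only panel in which both ABL points lie below both CONT points.

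As a share of cells, Prg4 was found, after each cell was thinned to 2000 UMIs, in 0.607% of CONT (0.263 to 1.19, exact binomial interval) and 2.60% of ABL mesenchymal cells (1.55 to 4.08) of replicate 1, and in 0.779% of CONT (0.446 to 1.26) and 32.3% of ABL mesenchymal cells (30.2 to 34.5) of replicate 2. The difference was 1.99 percentage points in replicate 1 and 31.6 in replicate 2, a mean of 16.8. Unthinned shares were 0.911, 6.79, 2.73 and 56.9%. Hematopoietic cells, which should lack lubricin, gave the level of free RNA: 0 of 2028 CONT cells (which allows up to 0.148%) and 1.43% of ABL cells (0.718 to 2.55) in replicate 1, and 0 of 325 CONT cells (up to 0.923%) and 5.38% of ABL cells (3.73 to 7.48) in replicate 2. In ABL replicate 1 these mesenchymal and hematopoietic intervals overlapped. The thinned share of cells with a Prg4 UMI was thus not separated from background there, whereas in ABL replicate 2 it was. In unthinned cells of ABL replicate 1, 13 of 692 mesenchymal and 1 of 767 hematopoietic cells had 2 or more Prg4 UMIs. Droplets with at most 300 UMIs, which hold no cell, carried Prg4 at 1.04, 61.9, 71.2 and 3280 CPM in CONT replicate 1, ABL replicate 1, CONT replicate 2 and ABL replicate 2. For this reason a cell was counted as a carrier of Prg4 only at 10 UMIs or more, and of another member at 2 UMIs or more. By that count there were 0, 3, 5 and 398 Prg4 carriers in the same order of libraries.

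The carriers of ABL replicate 2 were concentrated in 1 cluster. Clusters were made from genes that exclude the members and the other genes listed here. One of them, with 195 cells of ABL replicate 2, was named joint lining from markers that are no members, among them Has1 (1248 CPM), Clic5 (1226), Hbegf (2679), Creb5 (524), Cd55 (310) and Htra4 (157); of the 8 markers, Has2 was low there (8.27 CPM). It held 91.5% of the library's mesenchymal Prg4 UMIs at 59636 CPM, and 194 of its 195 cells were carriers. Its cells ranged from 1 to 3796 Prg4 UMIs with a median of 863, and 82 of them had 1000 or more. The same cluster held 11 cells of CONT replicate 2, which had 0 UMIs of Prg4, Has1 and Clic5 and instead 311 CPM of Sox10, a transcription factor of Schwann cells, so the name was used for its ABL cells alone.

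**Figure D2:**
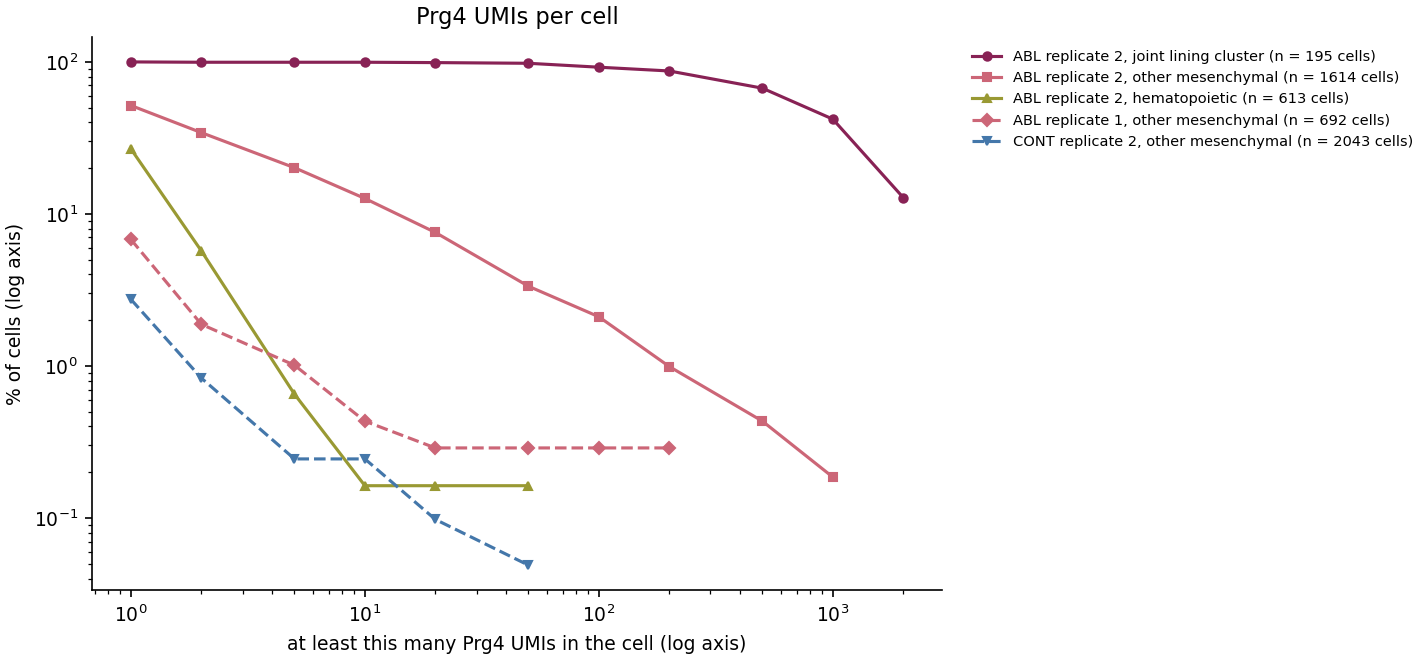
Share of cells (log axis) with at least the number of Prg4 UMIs on the x axis (log axis), for groups of cells of 3 libraries; a line ends where no cell is left. The joint lining cluster of ABL replicate 2 (195 cells) stays near 100% up to 100 UMIs. Hematopoietic cells of that library fall to 1 of 613 cells at 10 UMIs, and its other mesenchymal cells lie in between.

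Prg4 was not limited to that cluster. Among the other 1614 mesenchymal cells of ABL replicate 2, 204 had 10 or more UMIs, against 1 of 613 hematopoietic cells. They lay in the chondrocyte cluster (4643 CPM, 39.1% carriers), the cycling cluster (1492 CPM, 26.0%), a cluster led by Msmp, Fmod and Lsp1 that stayed unnamed (679 CPM, 20.8%) and the fibroblast or periosteal cluster (332 CPM, 12.6%). Scrublet called 4 of the 398 carriers doublets. In CONT replicate 2, 4 cells that fell in the fibroblast or periosteal cluster held 55.3% of the library's 219 UMIs.

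Cilp was at 4.89 CPM (34 UMIs) in CONT and 16.5 CPM (100 UMIs) in ABL of replicate 1, and 0.833 CPM (23 UMIs) in CONT and 158 CPM (4053 UMIs) in ABL of replicate 2. The groups did not overlap, and ABL over CONT was 3.38 in replicate 1 (2.27 to 5.14) and 190 in replicate 2 (126 to 300). A single cell held 19 of the 23 UMIs of CONT replicate 2, so the size of the second ratio rests largely on that cell. In replicate 1 a small cluster of fibroblast or periosteal cells, led by Clec3b, Myoc and Gsn, carried it on both sides: 82.0% of the UMIs of ABL (1193 CPM, 7 of 11 cells carriers) and 82.4% of those of CONT (563 CPM, 6 of 8 cells). In ABL replicate 2 the chondrocyte cluster held 44.1% of Cilp UMIs (1085 CPM, 33.3% of cells carriers) and the fibroblast or periosteal cluster 34.2% (218 CPM, 34.7%). Cilp therefore had both a fibroblast and a cartilage source in that library, at a similar share of cells and different levels.

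Cilp2, the paralog of Cilp, was at 1.15 CPM (8 UMIs) in CONT and 1.32 CPM (8 UMIs) in ABL of replicate 1, and 0.616 CPM (17 UMIs) in CONT and 46.4 CPM (1188 UMIs) in ABL of replicate 2. Its ABL to CONT ratio in replicate 1, 1.15, had an interval from 0.376 to 3.51, so no difference was detectable there at this depth; in replicate 2 it was 75.3 (46.8 to 130). In ABL replicate 2 its carriers were 44.8% of chondrocyte cells (345 CPM), 32.0% of an unnamed cluster led by Dio2, Mfap4 and Igf2 (187 CPM) and 12.8% of the Msmp, Fmod and Lsp1 cluster (68.4 CPM). The fibroblast or periosteal cluster, a main source of Cilp, had Cilp2 in 2.05% of its cells.

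Cytl1 was at 5.76 CPM (40 UMIs) in CONT and 31.1 CPM (188 UMIs) in ABL of replicate 1, and 0 CPM in CONT and 79.6 CPM (2039 UMIs) in ABL of replicate 2. The ratio was 5.40 in replicate 1 (3.82 to 7.79). In replicate 2 ABL was at least 595-fold higher by the lower limit of the exact interval, and 732-fold higher than a floor of 3 UMIs in the CONT library. Most of the mesenchymal Cytl1 UMIs of the 3 libraries that held them lay in chondrocyte clusters, which had 38 of the 40 mesenchymal UMIs of the CONT library of replicate 1 (323 CPM, 8 cells), 92.6% of those of its ABL library (702 CPM, 15 cells) and 82.0% in ABL replicate 2 (1015 CPM, 87 cells). In ABL replicate 1 a pair of chondrocytes with 78 and 74 Cytl1 UMIs, which also had 723 and 973 Col2a1 UMIs, held 80.9%. Outside the mesenchymal cells, the endothelial cells of CONT replicate 1 had 17 Cytl1 UMIs (38.1 CPM), of which 16 lay in 1 cell. Within the chondrocyte cluster of ABL replicate 2 Cytl1 was carried by 26 of 87 cells. CONT replicate 2 had only 1 cell in that cluster. The fold of replicate 2 therefore compares sums with and almost without chondrocytes, and says little of the level within them.

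Tnmd, the mature tendon gene, was close to the limit of detection outside ABL replicate 2. It was at 0.576 CPM (4 UMIs) in CONT and 2.15 CPM (13 UMIs) in ABL of replicate 1, and 0.543 CPM (15 UMIs) in CONT and 33.9 CPM (868 UMIs) in ABL of replicate 2. ABL over CONT was 3.73 in replicate 1 (1.15 to 15.7) and 62.4 in replicate 2 (37.6 to 112). The Dio2, Mfap4 and Igf2 cluster, with 50 cells of ABL replicate 2, held 37.4% of its UMIs there (482 CPM), and 62.0% of the cells of the cluster were carriers. That cluster also had the tendon genes Comp (4718 CPM), Ecrg4 (2770 CPM), Fmod (1297 CPM), Chad (548 CPM) and Kera (265 CPM), but its markers did not separate it from fibroblast or periosteal cells and it stayed unnamed. The 36 cells of CONT replicate 2 in the same cluster had 2 Tnmd UMIs. Their Cxcl12 was at 5528 CPM, against 339 CPM in the 50 ABL cells, so these CONT cells are not a like comparison. The 2 richest Tnmd cells of ABL replicate 2, with 48 and 46 UMIs, lay outside it, in the Msmp, Fmod and Lsp1 cluster.

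Scx was at 0.288 CPM (2 UMIs) in CONT and 5.62 CPM (34 UMIs) in ABL of replicate 1, and 0.471 CPM (13 UMIs) in CONT and 73.9 CPM (1893 UMIs) in ABL of replicate 2. ABL over CONT was 19.5 in replicate 1 (5.0 to 168) and 157 in replicate 2 (91.5 to 295). Unlike Tnmd, it was highest in the cycling cluster of ABL replicate 2 (267 CPM), where 56.1% of 123 cells were carriers and 41.8% of the UMIs lay. The Msmp, Fmod and Lsp1 cluster held a further 28.8% (101 CPM, 24.7% of cells). In ABL replicate 1, 73.5% of the 34 UMIs were in 1 unnamed cluster led by Prg4, Ccl21a and Aspn (23.4 CPM).

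Thbs4 was the member whose groups overlapped. It was at 1.01 CPM (7 UMIs) in CONT and 4.46 CPM (27 UMIs) in ABL of replicate 1, and 10.8 CPM (298 UMIs) in CONT and 233 CPM (5973 UMIs) in ABL of replicate 2, so that CONT replicate 2 was above ABL replicate 1. The ratio was 4.43 in replicate 1 (1.88 to 12) and 21.6 in replicate 2 (19.2 to 24.3). All 298 mesenchymal UMIs of CONT replicate 2 came from a single cell, which also had 86 Prg4, 13 Cilp2, 11 Tnmd, 6 Scx and 1 Cilp UMIs, 113 UMIs of Comp and 58 of Fmod, 16 of tdTomato and 0 of Cxcl12. This cell was thus the richest or only source of 5 members in its library. In ABL replicate 2 Thbs4 was carried in several clusters, by 29.5% of fibroblast or periosteal cells (446 CPM), 33.3% of cycling cells (321 CPM) and 15 of the 50 cells of the Dio2, Mfap4 and Igf2 cluster (319 CPM). It was also carried by 26.0% of the Msmp, Fmod and Lsp1 cluster (251 CPM) and 28.7% of the joint lining cluster (155 CPM).

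Mkx, at chr18:6934518-7004780 (minus strand, GRCm38, protein coding), differed from the other members in where it was found. Its level was 11.2 CPM (78 UMIs) in CONT and 9.42 CPM (57 UMIs) in ABL of replicate 1, and 16.6 CPM (457 UMIs) in CONT and 5.78 CPM (148 UMIs) in ABL of replicate 2. ABL over CONT was 0.839 in replicate 1, with an interval from 0.585 to 1.20, and 0.349 in replicate 2 (0.288 to 0.421). The richest cell of any library held 11 UMIs, so the counts were spread over many cells. Reticular cells held 71.8% (CONT) and 78.9% (ABL) of the Mkx UMIs of replicate 1, and 82.1% (CONT) and 16.2% (ABL) of those of replicate 2. Within reticular cells Mkx was at 11.7, 17.7, 18.0 and 11.3 CPM in that order, and in hematopoietic cells at 0.555, 0.401, 0.345 and 0.566 CPM. The reticular cells of ABL replicate 2, 272 of its 1809 mesenchymal cells, thus had the lowest of the 4 values, next to that of CONT replicate 1. In the clusters of that library that carried Tnmd and Scx, Mkx was at 11.9 CPM in the Dio2, Mfap4 and Igf2 cluster (8 UMIs, 5.12 to 23.4), at 7.44 CPM in the Msmp, Fmod and Lsp1 cluster (5.31 to 10.1) and at 4.73 CPM in the cycling cluster (2.59 to 7.94).

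**Figure D3:**
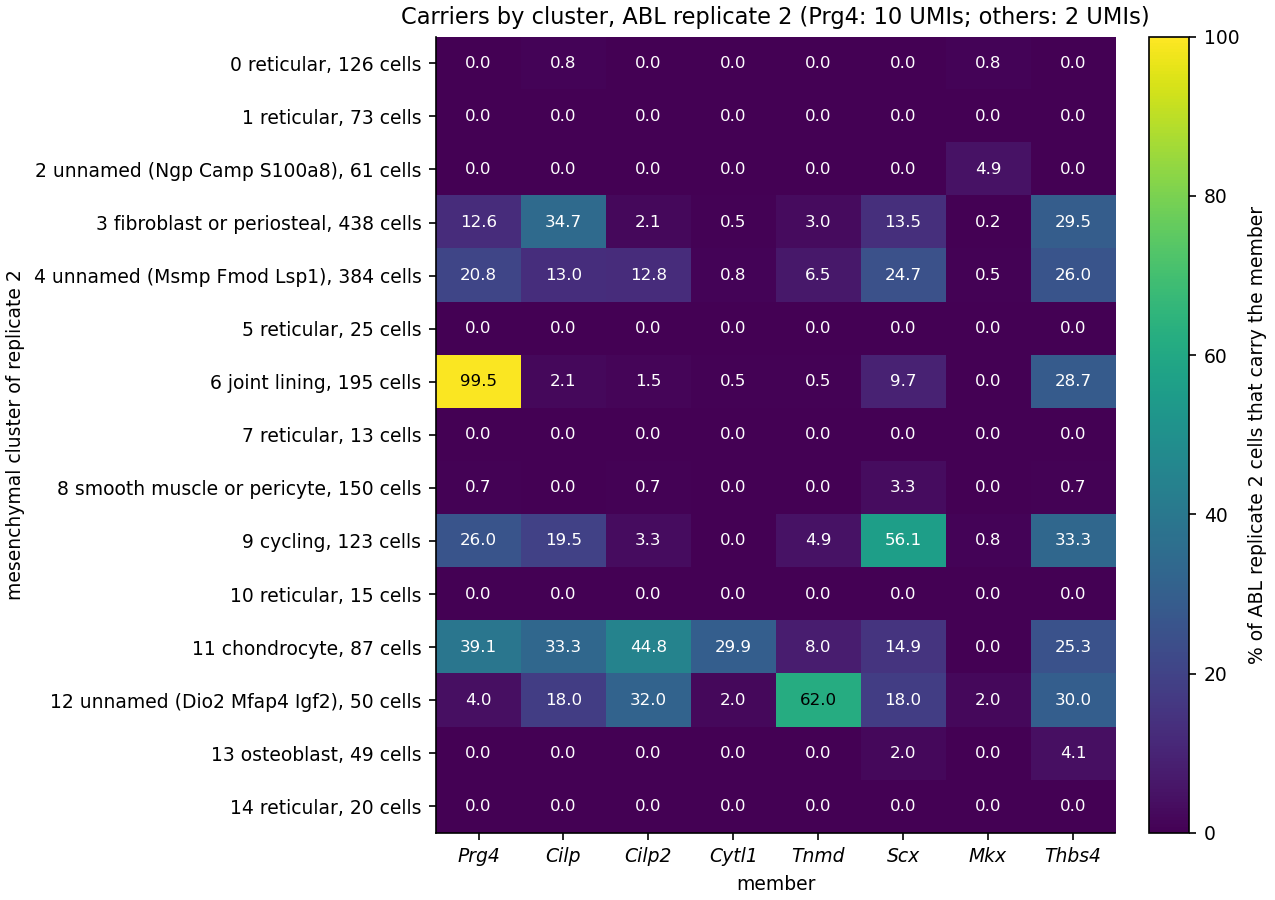
Share of the cells of each mesenchymal cluster of ABL replicate 2 (rows, with their number of cells) that carry each member (columns), at 10 UMIs for Prg4 and 2 UMIs for the others; the colour scale runs from 0 to 100%. Prg4 peaks in the joint lining cluster (99.5%), Tnmd in the Dio2, Mfap4 and Igf2 cluster (62.0%), Scx in the cycling cluster (56.1%) and Cytl1 in the chondrocyte cluster (29.9%), and reticular clusters carry almost none of the members.

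All 8 members passed the filter on low counts of the fit over mesenchymal sums (edgeR, replicate as a block). Their log2 ABL minus CONT was 7.55 ± 1.55 (SE) for Prg4, 4.63 ± 1.10 for Cilp, 4.0 ± 1.13 for Cilp2, 5.48 ± 1.34 for Cytl1, 4.68 ± 0.88 for Tnmd, 6.64 ± 0.73 for Scx, -0.95 ± 0.48 for Mkx and 3.59 ± 0.63 for Thbs4, each from 2 libraries per group. At an adjusted p under 0.05, 6 of the 8 counted as higher and 0 as lower, where 2.28% of the 13732 genes tested were higher and 0.976% lower (3.26% in either direction); since the contrast chose the members, nothing is read from that count. No gene of the 13732 passed without the replicate block, where 1204 had an unadjusted p under 0.05. ABL replicate 2 set the size of most values. Without it, and with no block, the log2 difference was 4.29 for Prg4, 2.50 for Cilp, 3.47 for Cytl1, 1.80 for Tnmd and 3.66 for Scx. For Thbs4 it turned to -0.59, and Cilp2 was not fitted. That fit set ABL replicate 1 against CONT libraries of both chemistries. Within replicate 1 Thbs4 was 4.43-fold higher in ABL, on 27 UMIs against 7 in CONT, with 15 of the 27 in 2 cells.

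Carrying several members at once was common in ABL replicate 2 and rare elsewhere. Of the 7 members other than Mkx, 0 were carried by 928 of its 1809 mesenchymal cells, 1 by 447, 2 by 279, 3 by 96, 4 by 48 and 5 by 11. In the other libraries 1307 of 1317 (CONT replicate 1), 666 of 692 (ABL replicate 1) and 2045 of 2054 cells (CONT replicate 2) carried none.

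Mkx, with 9 carriers, aside, the pairs that exceeded the expected number most were Cilp2 with Cytl1, Cilp2 with Tnmd and Cilp with Cytl1. Among the cartilage genes, Cilp2 and Cytl1 were carried together by 20 cells where their separate shares gave 2.21, and Cilp and Cytl1 by 23 cells where 4.91 was expected. Among the tendon genes, Tnmd and Scx met in 38 cells (12.4 expected), Tnmd and Thbs4 in 50 (16.8 expected) and Scx and Thbs4 in 117 (54.6 expected). Cytl1 met Tnmd in 0 cells (1.51 expected) and Scx in 1 cell (4.93 expected). Cilp2 lay on both sides, since it met Tnmd in 34 cells (5.55 expected) as well as Cytl1, and Cilp met Thbs4 in 125 cells (54.4 expected). These counts are a description of 1 library, and the part of depth in them was not tested. Carriers of the 7 members had medians of 10900 to 18800 UMIs, against 8827 in cells with no UMI of the 7.

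Prg4 was carried by 22 of the 33 Cytl1 carriers (7.26 expected), 41 of the 121 Cilp2 carriers (26.6 expected), 115 of the 366 Thbs4 carriers (80.5 expected), 74 of the 269 Cilp carriers (59.2 expected), 64 of the 270 Scx carriers (59.4 expected) and 6 of the 83 Tnmd carriers (18.3 expected). By the ratio of observed to expected, and with Mkx set aside, Prg4 shared most with Cytl1 and least with Tnmd.

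**Figure D4:**
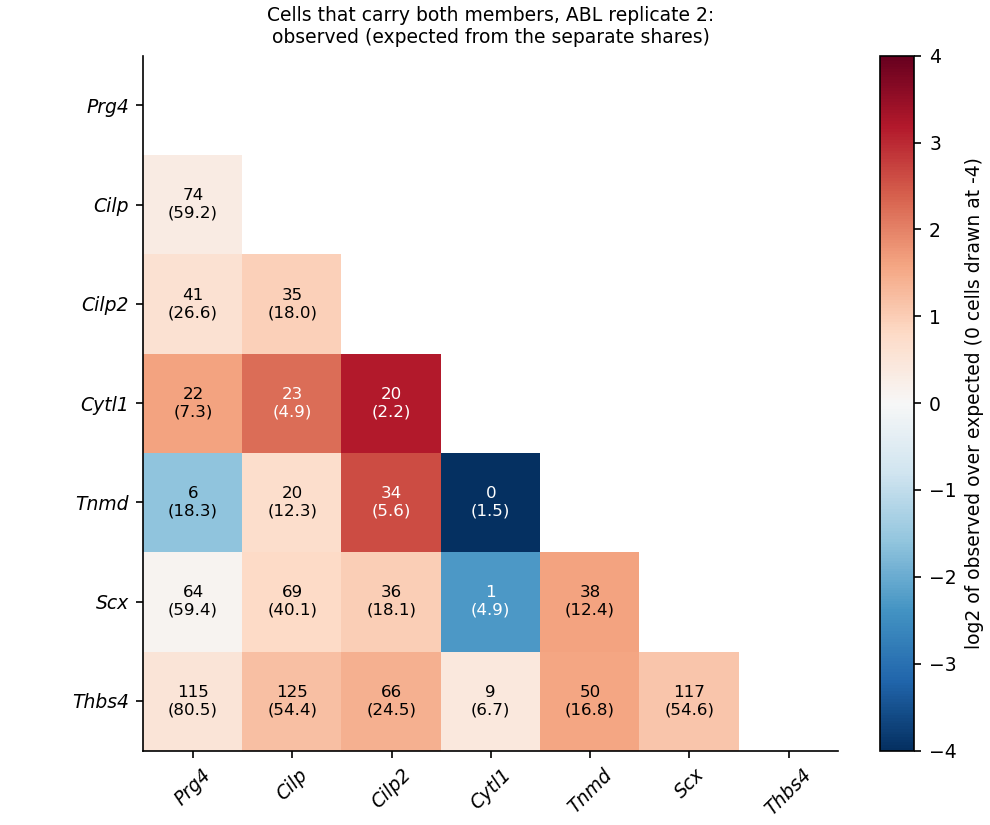
Number of mesenchymal cells of ABL replicate 2 that carry both genes of a pair, with the number expected from the separate shares in brackets; the colour is the log2 of observed over expected. Cilp2 with Cytl1 (20 against 2.2) is the reddest pair, and Cytl1 with Tnmd (0 against 1.5) and with Scx (1 against 4.9) and Prg4 with Tnmd (6 against 18.3) are blue.

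Most carriers of the 7 members other than Mkx in ABL replicate 2 had tdTomato UMIs. Their Cxcl12 level was below that of cells with no UMI of the 7, which could still hold Mkx. In that library tdTomato UMIs were in 98.5% of Prg4 carriers, 98.9% of Cilp carriers, 98.8% of Tnmd carriers and 98.5% of Scx carriers. They were in 90.9% of the 505 cells with no UMI of the 7. Cxcl12, the niche chemokine whose regulatory DNA drives the recombinase, was at 288 CPM in Prg4 carriers, 154 CPM in Tnmd carriers and 81.8 CPM in Scx carriers. It was between 40.3 and 310.5 CPM in those of all 7, against 6174 CPM in cells with no UMI of the 7. Carriers of Mkx differed, with Cxcl12 at 4934 CPM in ABL replicate 2 (9 carriers) and 18100 CPM in CONT replicate 2 (78 carriers). Ptprc, the pan-hematopoietic surface protein CD45, was at 7.02 CPM or below in the carriers of every member, and the muscle actin Acta1 was at 0.

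The transcript of the recombinase itself did not follow Cxcl12 in the joint lining cluster. iCreER had 198 UMIs there in ABL replicate 2, 60.6 CPM (52.5 to 69.7), in 64 of 195 cells (32.8%, 26.3 to 39.9), while Cxcl12 was at 437 CPM. In the reticular clusters of the same library, with Cxcl12 at 2255 to 19660 CPM, iCreER was at 0 to 8.99 CPM. The Dio2, Mfap4 and Igf2 cluster came next at 16.3 CPM. The lubricin-rich cells were thus the highest in transgene transcript of any cluster of that library. Among clusters of 20 or more cells in the other libraries, the highest was a reticular cluster of CONT replicate 1 at 51.3 CPM (37.3 to 68.8), whose interval overlaps. In ABL replicate 1 the Cilp-rich fibroblast cluster had 5 iCreER UMIs in 11 cells, 72.7 CPM (23.6 to 170). All these intervals are counting errors of 1 library each, and no cluster of replicate 1 was named joint lining. The replicate 1 cluster led by Prg4, Ccl21a and Aspn, which held the 2 richest Prg4 cells of ABL replicate 1, scored highest for joint lining (0.599). It stayed unnamed because fibroblast or periosteal scored 0.544. Its iCreER was at 9.37 CPM in ABL replicate 1 (4.50 to 17.2).

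**Figure D5:**
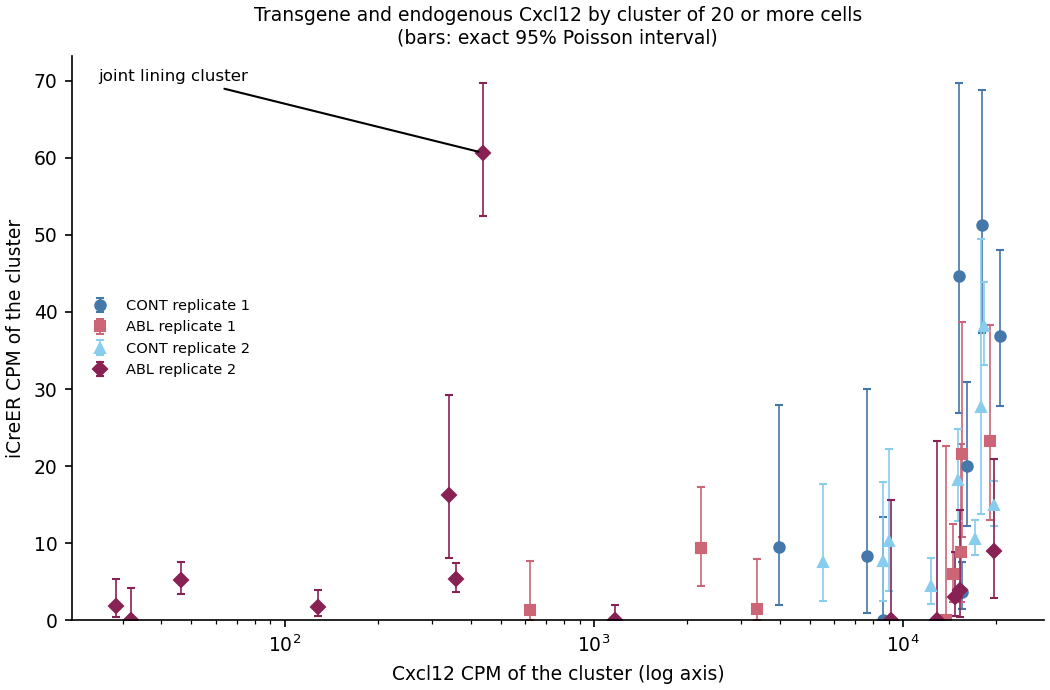
iCreER CPM against Cxcl12 CPM (log axis) for each mesenchymal cluster with at least 20 cells in a library, 1 point per cluster and library with the exact 95% Poisson interval of iCreER. The joint lining cluster of ABL replicate 2 lies alone at 437 CPM of Cxcl12 and 60.6 CPM of iCreER, left of the reticular clusters.

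The genes most like each member were sought over 38 sums of 1 cluster in 1 library (at least 20 cells), on log2(CPM + 10). The sums of a library share its chemistry and depth, and the r values describe them only. Sox5, a cofactor of SOX9 in cartilage, was most like Prg4 (r = 0.930). Tnn, which encodes the matrix protein tenascin-W (r = 0.938), and Thbs4 itself (r = 0.920) were among the 5 genes most like Scx, and Ahnak2 was among the 5 most like Thbs4 (r = 0.949). Chad, a leucine-rich protein of cartilage and tendon, was most like Cilp2 (r = 0.966), and Fam180a (r = 0.945) and the cartilage proteoglycan gene Acan (r = 0.914) were among the 5 most like Cilp. Kera, a small proteoglycan of cornea and tendon, was most like Tnmd (r = 0.916), and Slurp1 was most like Cytl1 (r = 0.929). Mkx had no gene as close, with Pid1 at r = 0.744.

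Within the reticular cells, only Prg4 and Mkx had enough counts to be tested. Prg4 was at 1.88, 7.08, 3.55 and 33.3 CPM in CONT replicate 1, ABL replicate 1, CONT replicate 2 and ABL replicate 2, against 0.111, 5.48, 0.172 and 32.0 CPM in hematopoietic cells. In both ABL libraries the reticular level was within counting error of the hematopoietic one, with ratios of 1.29 (0.698 to 2.30) and 1.04 (0.790 to 1.35). In ABL replicate 2, however, 1 hematopoietic cell held 67 of the 283 hematopoietic Prg4 UMIs, and the next richest 6. The ratio of 1.04 thus rests in part on that cell, and the ratio without it was not computed. In the CONT libraries it was above it, with ratios of 16.9 (3.51 to 161) and 20.6 (3.59 to 825). Reticular log2 ABL minus CONT was 2.74 ± 0.41 for Prg4 and -0.15 ± 0.31 for Mkx. Prg4 counted among the genes called higher, where 2.21% of the 11081 genes tested there were higher and 1.91% lower (4.12% in either direction). Since the ABL and CONT contrast chose the members, nothing is read from that call. The part of free RNA in the reticular Prg4 of the ABL libraries was not tested.

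Other genes of the joint surface, of tendon, of the members' partners and of the response to TGF-beta were tested in the same mesenchymal fit. In that fit 2.28% of all 13732 genes tested were higher and 0.976% lower. The lists were drawn up with earlier results of these data known, so nothing is read from the number of their genes called or from their medians. All markers that named the joint lining cluster, Htra4 and Tspan15 among them, are in the first list. Chad and Ptgis were likewise among the tendon markers used in naming clusters. The calls of these genes are thus not separate from the cell groups already described for ABL replicate 2. Of 19 joint lining and lubrication genes tested, 6 were higher in ABL and 0 lower, with a median log2 difference of 2.28, where all genes had a median of -0.06. The 4 named by size were Htra4, a secreted serine protease (0.432, 1.65, 0.362 and 21.5 CPM in CONT replicate 1, ABL replicate 1, CONT replicate 2 and ABL replicate 2; 4.68 ± 0.92, adjusted p = 0.0119), the tetraspanin Tspan15 (3.87 ± 0.88, adjusted p = 0.0228), Itga10, the collagen-binding integrin subunit of chondrocytes (3.45, 24.6, 1.45 and 25.6 CPM; 3.48 ± 0.52, adjusted p = 0.0019), and Cd44, the hyaluronan receptor to which lubricin also binds (25.5, 93.7, 12.9 and 256 CPM; 3.06 ± 0.63, adjusted p = 0.0129). All 6 were higher in ABL in both replicates. Htra4 in CONT replicate 1 was at the level of 3 UMIs, so the size of its difference rests on few counts. Has1 did not pass (4.10 ± 1.30, adjusted p = 0.0978).

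Of 22 tendon and ligament genes 2 were higher and 0 lower, with a median of 1.28. They were Chad (42.0, 153, 6.81 and 243 CPM; 3.47 ± 0.74, adjusted p = 0.0165) and Ptgis, the prostacyclin synthase gene (2.56 ± 0.65, adjusted p = 0.0395). The other thrombospondins, set beside Thbs4, did not pass: Thbs1 was at -0.48 ± 0.57, Thbs2 at 1.67 ± 0.53 (adjusted p = 0.10) and Thbs3 at 2.37 ± 0.80 (adjusted p = 0.12). Cnmd, chondromodulin, the relative of Tnmd, was at 1.88 ± 0.53 (adjusted p = 0.0635).

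Of 15 partners and relatives of the members 1 was higher, Cd44, and 0 lower, with a median of 0.16. Tcf3, which encodes the E-protein that pairs with scleraxis, was at 44.0, 47.4, 27.9 and 26.7 CPM in the order of libraries above (-0.02 on the log2 scale), and so differed little where Scx differed widely. Of 9 genes of the response to TGF-beta, the growth factor that induces Scx in tendon progenitors, 2 were higher and 0 lower, with a median of -0.27. They were Postn, periostin (28.5, 279, 10.7 and 791 CPM; 4.71 ± 0.82, adjusted p = 0.0054), and Fn1, fibronectin (131, 956, 37.3 and 5620 CPM; 5.01 ± 1.30, adjusted p = 0.0429).

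None of the genes of the 4 lists passed without the replicate block, where 12, 8, 2 and 2 had an unadjusted p under 0.05. After the profile of empty droplets was subtracted, Itga10 alone still passed (adjusted p = 0.0472). The share subtracted came from haemoglobin and granule genes and may be too high for the listed genes (below). The fits with 1 library left out had no block either. As no listed gene passed without the block on all 4 libraries, a call lost there cannot be laid to the library left out. In the reticular fit, with the background given above, 10 genes of the lists were called. The profile of empty droplets was scaled by haemoglobin and neutrophil granule genes. By these it made up 8.10% (CONT) and 9.04% (ABL) of the reticular UMIs in replicate 1, and 0.884% (CONT) and 14.2% (ABL) in replicate 2. In ABL replicate 2 the empty droplets had Prg4 at 3280 CPM and Thbs4 at 77.8 CPM, where reticular cells had 33.3 and 0 CPM. A share of 14.2% is thus too high for these genes, and for the listed genes it was not checked. A call lost after the subtraction is therefore not read as free RNA. After the profile was subtracted, 8 of the 10 still passed. Of these, Thbs2 of the tendon list, Postn and Fn1 of the TGF-beta list and Has2 of the joint lining list were higher in ABL. Tgfb3, Cd55, Creb5 and Thbd were lower. Comp (adjusted p = 0.73) and Fmod (adjusted p = 0.909) no longer passed. In hematopoietic cells Comp was at 1.94, 5.35, 0.689 and 34.4 CPM in the order of libraries above, against 8.16, 33.0, 6.29 and 66.6 CPM in reticular cells. Fmod was at 0.667, 3.08, 0.345 and 9.39 CPM, against 4.81, 15.3, 2.79 and 31.4 CPM. Both rose in hematopoietic cells too, and reticular levels were higher in every library. The part of free RNA in their reticular rise was not tested. None of the 10 passed with no replicate block, and 7 passed by DESeq2. The difference between the reticular and the mesenchymal fit was not tested.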

How the data were processed

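Single-cell RNA-seq was done on sorted tdTomato+ femur cells in 4 libraries (2 CONT, 2 ABL). The authors deposited UMI counts, not normalized, for every feature in every barcode, made with Cell Ranger on mm10 with reporter and recombinase sequences added, before any cell calling; Seurat is also named in the submitters' processing notes.

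Cells were called at 500 genes and 20% mitochondrial UMIs at most (version 2) or 1000 genes and 15% (version 3), plus a UMI minimum of 10% of the 99th percentile of the 3000 largest barcodes. Mesenchymal cells were clustered per replicate (Seurat 5.3.0, R 4.3.3; 2000 variable genes, 30 components, resolution 0.8) after 82 genes, the members and listed genes among them, were left out. Clusters were named from markers; the margin (0.15) and minimum (0.25) of the naming score, and the carrier minimums, were set after the data were seen. Scrublet doublets were kept in the main values. Shares came from cells thinned to 2000 UMIs, with exact binomial limits; a count of 0 allows 3.

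Summed counts were tested with edgeR 4.0.16 (quasi-likelihood, TMM, filterByExpr, Benjamini-Hochberg over all genes) with the replicate as a block. The replicate number marks a shared chemistry, and same-numbered libraries deviated together (r = 0.442 over 13732 genes, 2 pairs). Alternatives included DESeq2 1.42.0. Scripts were tested on simulated data. Named genes were all 8 members, up to 4 genes per list and direction that passed with at least 5 CPM on average, family members as values, and the 5 genes most like each member (at least 200 UMIs). The members and lists were chosen with earlier results of these data known. Promoters came from RefSeq. Some results are not reported here.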

Additional observations from a re-analysis of the deposited data

How the results depend on the processing

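Over the 14 alternatives to the mesenchymal fit, the 447 genes called became 0 with no replicate block (1204 at an unadjusted p under 0.05), 782 with no TMM, 228 with no filter on low counts, 57 with free RNA subtracted, 766 with the gene and mitochondrial minimum of the study alone and 799 with 1000 genes and 10% mitochondrial UMIs in every library. With 1 library left out and no block, they ranged from 0 to 405: 0 without CONT replicate 1 or CONT replicate 2 (1754 and 274 at an unadjusted p under 0.05), 405 without ABL replicate 1 and 5 without ABL replicate 2. DESeq2 with the replicate as a term called 611. The lone library of a group is then assumed to vary like the others.

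The 457 genes called in reticular cells became 0 with no replicate block (280 at an unadjusted p under 0.05) and 137 by DESeq2, and ranged from 0 to 162 with 1 library left out (162 without CONT replicate 1, 95 without ABL replicate 1, 0 without CONT replicate 2, with 306 at an unadjusted p under 0.05, and 25 without ABL replicate 2). The fits with 1 library left out had no block either. Without TMM the split was 318 higher and 147 lower, against 245 and 212, and the median of all genes moved from -0.02 to 0.10. Including the clusters led by neutrophil, haemoglobin or stress genes, an alternative chosen after seeing the data, gave 317.

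The mean difference in the share of cells with Prg4 was 12.86 to 30.02 percentage points over the alternatives that keep both replicates, and 1.99 without replicate 2 against 31.6 without replicate 1. Of 127 alternative mesenchymal values of the members 119 kept their sign and lay within 1 SD of the main value. A further 7 moved, and 1 reversed: Thbs4 at -0.59 without ABL replicate 2 and with no block. The SD was that of the log2 ratios of the 2 replicates, which lay far apart for several members. The limit is therefore wide, and the count of 119 does not measure stability. Prg4 at 4.29 without ABL replicate 2, against 7.55, lay within it. In reticular cells Mkx, at -0.15, ranged from -0.47 to 0.22 over 13 alternatives and was at 0.05 without ABL replicate 2. Of 164 alternative values of the named listed genes, mesenchymal and reticular fits together, 113 kept their status, passing or not, and 51 no longer passed. The 113 include values of Cd44 and Ptgis in reticular cells, where neither passed in the main fit (edgeR adjusted p = 0.245 and 0.132). These genes were named because they had passed in mesenchymal cells, so the count of 113 does not measure stability either. The cause of these changes was not tested. Depth limits Cilp2, Tnmd, Scx and Thbs4 in replicate 1, where 2 to 34 UMIs were counted per library.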
